A study of Mus with 18 samples.

Results

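The comparison described here is that of the LPS-MIC-1 group with the LPS group in the cultured-cell experiment, 6 of the 18 RNA-seq libraries of the series, with 3 libraries in each group. Both groups were labelled as myoblasts of the strain C2C12, a mouse skeletal muscle precursor line, with a wild type genotype. The LPS group had received lipopolysaccharide (LPS) at 1 μg/mL, and the LPS-MIC-1 group had received the same LPS together with MIC-1, the isothiocyanate of moringa, at 10 μM by the labels, for 24 h. Both groups therefore carried LPS, and the 3 control libraries had no LPS. No library had MIC-1 alone, so by the labels MIC-1 was given only on top of LPS. Nothing in the labels says that the replicates were separate cultures, and the p-values below measure the spread between these libraries, which may be technical. The labels called all of these cells myoblasts, but the marker genes described below went against this name for the LPS libraries, so LPS and LPS-MIC-1 below mean the libraries that carry these labels.

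LPS is a cell wall component of Gram-negative bacteria. It is sensed by Toll-like receptor 4 (TLR4) with its partners MD-2 (encoded by Ly96) and CD14, which act through MyD88 and TRIF to free NF-κB from its inhibitor and to switch on cytokine, chemokine and interferon-response genes. Isothiocyanates react with cysteines of Keap1, the protein that keeps the transcription factor Nrf2 low, and Nrf2 drives genes of glutathione conjugation, thioredoxin and NADPH supply. Myoblasts sense LPS through TLR4 too, but macrophages carry many more of the genes that respond to it.

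The values are FPKM, read counts scaled for transcript length and library depth, as the authors deposited them. Differences between groups, LPS-MIC-1 minus LPS, are log2 fold changes (log2FC) on log2(FPKM + 0.1), a scale that understates the change of genes near 0. The limma test called a gene where its adjusted p was below 0.001 and its log2FC was above 1 or below -1. Values of a group are listed in the order of replicates 1, 2 and 3.

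The libraries differed in spread, in depth and in what they shared. The median SD of log2 values over the genes tested was 0.0678 among the LPS libraries and 0.197 among the LPS-MIC-1 libraries. Relative to LPS replicate 1, the depth estimated from the steps of the lowest values was 0.997 and 1.00 in the other LPS libraries, and 0.850, 1.05 and 0.551 in the LPS-MIC-1 libraries. These estimates rest on the most frequent step, on which 14.4 to 22.1% of the low values lay, and the number of reads is not known. LPS-MIC-1 replicate 1 carried a trace of genes of the LPS libraries. In 28 genes above 50 FPKM in LPS that were under 0.1% of that level in LPS-MIC-1 replicates 2 and 3, its median level was 2.80% of the LPS mean (interquartile range 2.58 to 3.31%), and all 28 were above 0. The share did not hold for every gene. Cd180 and Irak3 had means of 32.4 and 20.7 FPKM in LPS and were listed at 0 in LPS-MIC-1 replicate 1. LPS replicate 3 carried a smaller trace the other way, 0.235% of the LPS-MIC-1 mean over 85 genes. Results that rest on either library are given with their values in each library or without it.

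The libraries differed most in genes of cell identity. The libraries labelled LPS carried the genes of macrophages and few of muscle, and those labelled LPS-MIC-1 carried muscle and matrix genes and few of macrophages beyond the trace in replicate 1. Of 33 macrophage genes found in the table, 30 passed the level filter, and in all 30 the groups did not overlap, as in 85.8% of all 11001 genes tested. The median level of the 33 genes was 172 to 178 FPKM in LPS, and 4.62, 0.284 and 0.216 FPKM in LPS-MIC-1. The median log2FC of the 30 was -7.59, against 0.01 for all genes tested, and 18 of them were called lower, against 21.8% of all genes. Without LPS-MIC-1 replicate 1 all 30 were called lower, with a median of -8.84, against 22% of all genes. A member that passed the filter only through the LPS libraries had to differ, so these counts describe the list.

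Lyz2, the macrophage lysozyme, lay at 1786, 1866 and 1863 FPKM in LPS and 48.8, 1.87 and 0.616 FPKM in LPS-MIC-1. Its log2FC was -8.81 ± 1.52 (SE; adjusted p = 0.0021) with all libraries and -10.59 ± 0.44 SE without LPS-MIC-1 replicate 1, where it was called lower. Fcer1g, the shared signalling chain of Fc receptors, stood at 1196, 1251 and 1228 FPKM in LPS and 30.5, 1.69 and 0.216 FPKM in LPS-MIC-1. In both genes LPS-MIC-1 replicate 1 was over 10 times above the other LPS-MIC-1 libraries, and all LPS-MIC-1 libraries were far below LPS. Emr1, which encodes the surface antigen F4/80, measured 90.2, 89.02 and 89.8 FPKM in LPS and 3.14, 0 and 0 FPKM in LPS-MIC-1. Csf1r, the receptor of the macrophage growth factor, was called lower with 184, 176 and 172 FPKM in LPS and 5.07, 0.505 and 0.31995 FPKM in LPS-MIC-1, a log2FC of -7.34 ± 0.94 (SE; adjusted p = 5.4e-04), a call lost when any 1 library other than LPS-MIC-1 replicate 1 was left out. Over the 30 genes, LPS-MIC-1 replicate 1 was at a median of 2.83% of the LPS mean and lay between 2 and 4% in 24 of them, whereas LPS-MIC-1 replicates 2 and 3 were at a median of 0.0861%. A few members had a level of their own in all 3 LPS-MIC-1 libraries. Cd14, the co-receptor of LPS, was lower with 2029, 2078 and 2013 FPKM in LPS and 136, 73.8 and 88.3 FPKM in LPS-MIC-1, and Trem2, a lipid receptor, was lower with 46.4, 41.3 and 47.5 FPKM in LPS and 4.31, 2.99 and 4.86 FPKM in LPS-MIC-1. The 6 subunits of the phagocyte NADPH oxidase, the enzyme of the oxidative burst, resembled the macrophage list. Cyba, the subunit p22phox, was at 609.5, 616 and 645 FPKM in LPS and 13.1, 0 and 0.372 FPKM in LPS-MIC-1, and 1 of the 6 was called lower with all libraries and 6 without LPS-MIC-1 replicate 1.

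**Figure D1:**
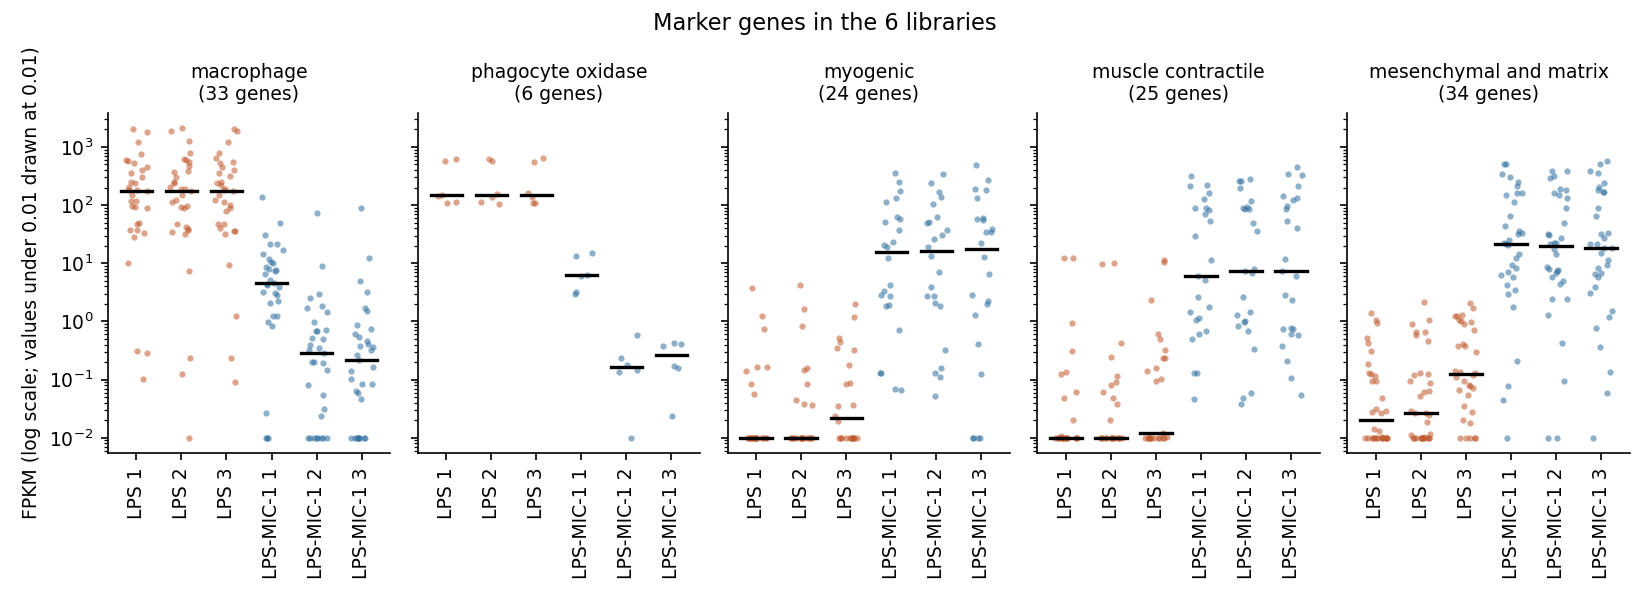
Level of marker genes in FPKM (log axis) in each of the 6 libraries, 1 point per gene of the list, with a bar at the median of the library. Macrophage genes have medians of 172 to 178 FPKM in LPS, 4.62 FPKM in LPS-MIC-1 replicate 1 and 0.284 and 0.216 FPKM in LPS-MIC-1 replicates 2 and 3, and the medians of the muscle and matrix lists lie high in LPS-MIC-1 and near 0 in LPS.

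**Figure D2:**
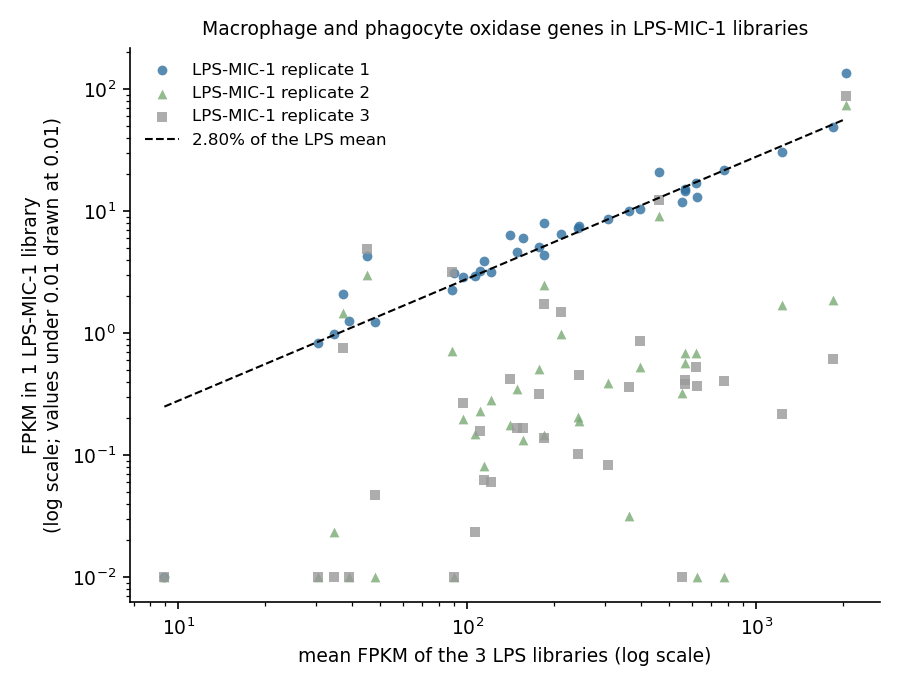
Each tested gene of the macrophage and phagocyte oxidase lists, with its mean FPKM in LPS on the x axis and its FPKM in 1 LPS-MIC-1 library on the y axis (both log). Most points of LPS-MIC-1 replicate 1 lie along the dashed line at 2.80% of the LPS mean, and most of those of LPS-MIC-1 replicates 2 and 3 are scattered below it.

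Genes of muscle and of connective tissue lay the other way. Of 24 myogenic genes, 17 were tested and 16 were called higher in LPS-MIC-1, with a median log2FC of 7.80, against 24.3% of all genes tested. All 15 tested of 25 genes for the contractile apparatus were higher (median 8.24), as were 27 of 29 tested among 34 mesenchymal and matrix genes (median 7.38). Of the tested members, 12 of 17, 12 of 15 and 23 of 29 had medians under 1 FPKM in LPS and of at least 5 FPKM in LPS-MIC-1. They entered the test through LPS-MIC-1 and had to differ. Members with lower LPS-MIC-1 levels, such as Cav3 and Musk, which were listed at 0 in LPS, entered in the same way. The counts therefore only describe the lists. Myod1, the transcription factor that commits cells to muscle, lay at 0, 0 and 0.0355 FPKM in LPS and 56.7, 49.5 and 55.7 FPKM in LPS-MIC-1. Des, the intermediate filament desmin, measured 0.164, 0.144 and 1.19 FPKM in LPS and 358, 347 and 488 FPKM in LPS-MIC-1. Cdh15, the muscle cadherin, was at 0, 0 and 0.355 FPKM in LPS and 175, 166 and 192 FPKM in LPS-MIC-1. These 3 genes were near 0 in LPS, with LPS replicate 3 the highest in each. Chrna1, a subunit of the acetylcholine receptor, was at 0.143, 0.157 and 0.327 FPKM in LPS and 113, 106 and 134 FPKM in LPS-MIC-1. Its embryonic partner Chrng was listed at 0 in all LPS libraries and at 36.9, 37.2 and 38.1 FPKM in LPS-MIC-1. Of the contractile genes, the myosin light chain Myl1 was at 0, 0 and 0.0939 FPKM in LPS and 160.4, 196 and 214 FPKM in LPS-MIC-1. The adult fast myosin Myh4 was low in LPS-MIC-1 too, at 0.131, 0.05797 and 0.605 FPKM. In the matrix list, Bgn, which encodes biglycan, was at 0.0264, 0.05304 and 1.24 FPKM in LPS and 517, 385 and 509.9 FPKM in LPS-MIC-1. Col3a1, a fibrillar collagen, was at 0, 0.01099 and 0.371 FPKM in LPS and 252, 191 and 238 FPKM in LPS-MIC-1. Sparc, a matrix glycoprotein, was at 0.0482, 0.0242 and 1.73 FPKM in LPS and 502, 384 and 573 FPKM in LPS-MIC-1, and lost its call without LPS-MIC-1 replicate 1 (10.500 ± 1.299 SE). These 3 matrix genes thus had 191 FPKM or more in every LPS-MIC-1 library and at most 1.73 FPKM in LPS. The members of the 3 lists that were not called were Itga7 at 7.73 ± 1.49 (SE; adjusted p = 0.0034), Lox at 1.82 ± 0.35 (SE; adjusted p = 0.0033) and Fn1, fibronectin, which was listed at 0 in LPS and at 6.32, 4.99 and 0.781 FPKM in LPS-MIC-1.

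Sex-linked genes separated the libraries as well. All 4 Y-linked genes of the list were called lower, among them Eif2s3y, a translation factor gene, with 40.95, 44.2 and 43.7 FPKM in LPS and 0.73996, 0 and 0 FPKM in LPS-MIC-1. Xist, the transcript that silences an X chromosome, was higher with 0.00999, 0.01997 and 0.118 FPKM in LPS and 39.3, 41.7 and 14.8 FPKM in LPS-MIC-1. The control libraries, which had no LPS, sat with the LPS libraries, with Eif2s3y at 34.8, 36.2 and 36.6 FPKM, Lyz2 at 4723, 4598 and 4761 FPKM and Myod1 at 0, 0 and 0.0293 FPKM. Most markers of other cell types were low. No gene of the dendritic or endothelial list passed the level filter, and of the lymphocyte, neutrophil, epithelial and adipocyte lists 7 of 30 genes found did. Among them, Krt19, a keratin, was at 9.604, 12.02 and 11.4 FPKM in LPS-MIC-1 and 0 in LPS, and Fabp4, a fatty acid carrier that macrophages also make, was at 63.5, 74.96 and 69.9 FPKM in LPS. Lck and S100a8 had means of 9.25 and 10.8 FPKM in LPS and of 0.348 and 2.62 FPKM in LPS-MIC-1 replicates 2 and 3. Cd3d, Cxcr2 and Camp went the other way, from LPS means of 0.329, 1.39 and 0.193 FPKM. Their means in LPS-MIC-1 replicates 2 and 3 were 3.13, 3.36 and 1.80 FPKM. No lymphocyte gene was above 0.938 FPKM in LPS-MIC-1 replicate 3. Under the filter, the epithelial genes Epcam and Krt8 reached 1.55 and 3.12 FPKM in LPS-MIC-1 replicate 3 and at most 0.215 FPKM in the other LPS-MIC-1 libraries.

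Treatment with MIC-1 and the difference in identity genes fall on the same groups of libraries, so no difference below can be told apart from the difference in cells. In bulk libraries, fewer cells of a type and less RNA per cell also cannot be told apart. The lists are therefore described over all tested members and again over those with a median of 5 FPKM or more in both groups, called the class expressed in both groups. A few genes entered this class with LPS-MIC-1 levels that were a very small share of the LPS level, and these are named below.

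Over the 11001 genes tested, LPS-MIC-1 was higher in 2672 and lower in 2398, 46.1% in all. The class expressed in both groups made up 54.4% of the genes tested (5987) and 90.4 to 92.5% of the FPKM of each library. Of its genes 1187 were higher (19.8%) and 994 lower (16.6%), 36.4% in all, with no overlap of the groups in 84.9%. In 3617 of them (60.4%) the fitted change was no more than 2-fold, and the median log2FC of the class was 0.09. In 560 genes the LPS median was at least 5 and the LPS-MIC-1 median under 1 FPKM, and 676 genes had the converse. The gene just inside the level filter was Hist2h2be with a mean of 1.0004 FPKM and the one just outside was Naip6 with 0.998 FPKM. For the class expressed in both groups, C79407 was just inside with a lower group median of 5.001 FPKM, and Nbas just outside with 4.998 FPKM. Since the levels set these classes, their counts are descriptions. List members that passed the level filter only through 1 group had to differ. List counts over all tested members are therefore descriptions too. The counts of the lists below stand beside 24.3% higher and 21.8% lower over all genes tested, and beside 19.8% and 16.6% in the class expressed in both groups, and a list near these shares is not a result about its members.

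**Figure D3:**
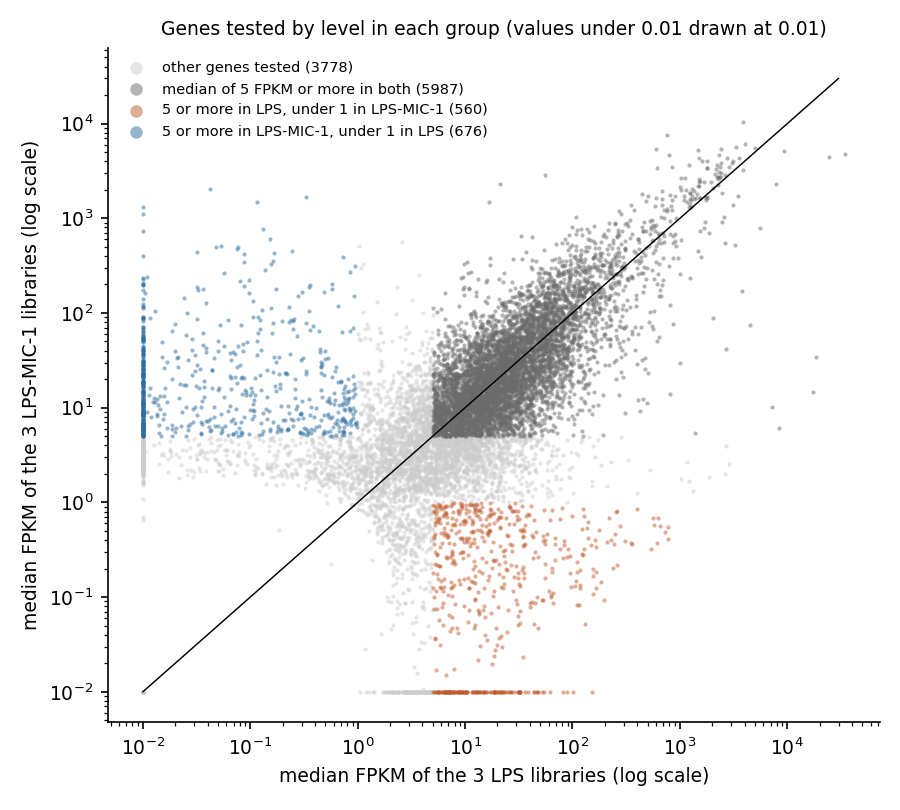
Median FPKM of LPS (x) against that of LPS-MIC-1 (y) for the 11001 genes tested, on log axes and coloured by class. The 5987 genes at 5 FPKM or more in both groups spread around the line of equal level, and the 560 and 676 genes of the classes high in 1 group lie towards the axes.

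Among the genes with a median under 1 FPKM in LPS-MIC-1, the most abundant in LPS were Lilrb4, Slc15a3, Nos2, Irg1 and Cyba. Lilrb4 is an inhibitory receptor of myeloid cells, Slc15a3 a lysosomal peptide transporter and Nos2 the inducible nitric oxide synthase, and Irg1 makes itaconate. LPS-MIC-1 replicate 1 held these genes at 13.1 to 22.2 FPKM. Nos2 was at 757, 726 and 720.3 FPKM in LPS and 18.3, 0.483 and 0.297 FPKM in LPS-MIC-1, and at 2.28, 1.68 and 3.06 FPKM in the control libraries. Its log2FC was -8.82 ± 1.46 (SE; adjusted p = 0.0017) with all libraries and -10.58 ± 0.17 SE without LPS-MIC-1 replicate 1, where it was called lower. Among the genes with a median under 1 FPKM in LPS, the most abundant in LPS-MIC-1 were Aldh3a1, Hspb1, Cck, Prl2c3 and Prl2c2. Aldh3a1 is an aldehyde dehydrogenase, Hspb1 a small heat shock protein and Cck the peptide cholecystokinin. The proliferin genes Prl2c3 and Prl2c2 are near-identical copies whose reads may have been split between them. Aldh3a1 was at 0, 0.0422 and 5.37 FPKM in LPS and 1597, 2042 and 2313 FPKM in LPS-MIC-1, and Cck at 0, 0.116 and 4.18 FPKM in LPS and 1179, 1469.8 and 2147 FPKM in LPS-MIC-1. Hspb1 was at 0.245, 0.331 and 2.47 FPKM in LPS and 1457, 1686 and 1919 FPKM in LPS-MIC-1, with a log2FC of 11.17 ± 0.77 (SE; adjusted p = 3.4e-05). In each of these 5 genes LPS replicate 3 was the only LPS library above 1 FPKM, and Aldh3a1, Cck and Prl2c3 were not called without LPS-MIC-1 replicate 1.

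Among called genes of the class expressed in both groups, the largest rises were those of Rpl30, Timp1, Gstp1, Snord12, Eno3, Mmd, Phlda3 and Cnn2. Timp1, an inhibitor of matrix metalloproteinases, rose from 15.7, 16.8 and 18.4 FPKM in LPS to 1493, 1483 and 1843 FPKM in LPS-MIC-1. Gstp1, a glutathione transferase, rose from 51.7, 55.2 and 57.3 FPKM in LPS to 2696, 2877 and 3537 FPKM in LPS-MIC-1. Eno3, the muscle enolase, rose from 7.93, 10.5 and 10.6 FPKM in LPS to 330.3, 343 and 415 FPKM in LPS-MIC-1. In these 3 genes the LPS-MIC-1 libraries lay close to each other and at least 30 times above every LPS library. Rpl30 has processed copies elsewhere in the genome and Snord12 is a small RNA inside another gene, so their values are uncertain. The largest falls were those of Il1rn, Ptgs2, Hmox1, Ucp2, Cd53, Tnfrsf1b, Plek and Eno2. Ptgs2, the inducible cyclooxygenase, fell from 2709.9, 2727 and 2615 FPKM in LPS to 106, 42.01 and 39.8 FPKM in LPS-MIC-1, and stood at 15.3, 16.5 and 15.8 FPKM in the control libraries. Hmox1, haem oxygenase 1, fell from 4513, 4591 and 4469.6 FPKM in LPS to 179, 67.4 and 75.5 FPKM in LPS-MIC-1. Il1rn, the antagonist of the interleukin-1 receptor, fell from 1374, 1410.5 and 1396 FPKM in LPS to 47.9, 5.398 and 5.44 FPKM in LPS-MIC-1. LPS-MIC-1 replicate 1 was the highest of its group in all 8 falls. Taken at its median share of 2.80% of the LPS mean, which did not hold for every gene, the trace is 39.0 FPKM for Il1rn. That leaves 8.93 FPKM of the level in LPS-MIC-1 replicate 1, beside a mean of 5.42 FPKM in replicates 2 and 3. For Hmox1 the same share is 126.5 FPKM and leaves 52.6 FPKM, beside 71.4 FPKM. In 6 genes of the class (Il1rn, Spp1, Ccl3, Ccl5, Cxcl2 and Lyz1) the mean of LPS-MIC-1 replicates 2 and 3 was under 1% of the LPS mean. Of these, Cxcl2, Ccl3, Ccl5, Spp1 and Lyz1 had larger fitted falls than Il1rn and were not called with all libraries.

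Of 19 tested genes of the TLR4 pathway, 10 were lower, 0 higher and 9 not called, with a median of -1.28. Of the 9 in the class expressed in both groups, 4 were lower and 5 not called. Tlr4 was at 9.42, 9.33 and 9.198 FPKM in LPS and 7.09, 6.08 and 7.28 FPKM in LPS-MIC-1, and at 13.4, 13.2 and 14.003 FPKM in the control libraries, with a log2FC of -0.45 ± 0.097 (SE; adjusted p = 0.0057). Ly96, its co-receptor, was at 30.1, 35.8 and 33.2 FPKM in LPS and 10.7, 15.6 and 17.8 FPKM in LPS-MIC-1, and was not called (-1.19 ± 0.196 (SE; adjusted p = 0.0017)). Both were lower in every LPS-MIC-1 library than in any LPS library without passing the call. Both main adaptors were lower. Myd88 fell from 41.2, 39.6 and 40.7 FPKM in LPS to 18.02, 16.8 and 17.4 FPKM in LPS-MIC-1. Ticam1, which encodes TRIF, fell from 81.2, 78.3 and 74.7 FPKM in LPS to 9.098, 7.78 and 7.31 FPKM in LPS-MIC-1, a log2FC of -3.27 ± 0.095 (SE; adjusted p = 2.1e-06). Irak3, an inhibitor of the pathway, was listed at 0 in all LPS-MIC-1 libraries and at 20.1, 21.2 and 20.6 FPKM in LPS. Irak2, a kinase-like adaptor, fell from 120.2, 121 and 121 FPKM in LPS to 7.93, 4.16 and 4.36 FPKM in LPS-MIC-1. Further down, the kinase gene Map3k7 (TAK1) and its partner Tab1 were not called, with log2FC values of 0.24 and 0.65.

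For NF-κB, the inhibitors that the factor itself induces were lower, and most of its subunits were not called. Of 22 tested genes, 13 were lower, 0 higher and 9 not called (median -1.37), and in the class expressed in both groups 8 of 15 were lower. Rela, the p65 subunit, was at 67.6, 63.4 and 61.8 FPKM in LPS and 59.9, 78.5 and 78.1 FPKM in LPS-MIC-1, with a log2FC of 0.16 ± 0.12 (SE; adjusted p = 0.26). Relb, Nfkb1 and Nfkb2 were not called, at 0.37, -0.71 and 0.19. Nfkb1 was under the fold limit but differed, with a mean of 58.4 FPKM in LPS and 35.9 FPKM in LPS-MIC-1 replicate 1. Its mean in LPS-MIC-1 replicates 2 and 3 was 35.5 FPKM. Without LPS-MIC-1 replicate 1 its log2FC in the limma test was -0.72 (adjusted p = 2.1e-04). Rel, the subunit of immune cells, fell from 13.3, 13.7 and 13.2 FPKM in LPS to 2.31, 1.62 and 0.988 FPKM in LPS-MIC-1. Of the inhibitors, Nfkbia (IκBα) fell from 391, 379 and 395 FPKM in LPS to 115, 121 and 117 FPKM in LPS-MIC-1, a log2FC of -1.72 ± 0.05 (SE; adjusted p = 2.0e-06). The control libraries had 86.1, 85.5 and 90.6 FPKM of Nfkbia. Other lower genes of the list included Nfkbiz (-2.17), Bcl3 (-1.48), Tnfaip3 (-2.28) and Tnip1 (-2.21), of which Tnfaip3 (A20) removes ubiquitin from the signalling complex.

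The cytokine genes named here showed 3 patterns: genes at a few FPKM or less in LPS-MIC-1 replicates 2 and 3, genes lower but present, and genes higher. Of 18 tested, 10 were lower, 3 higher and 5 not called (median -4.78), and without LPS-MIC-1 replicate 1 there were 12 lower and 3 higher. Of the 18, 5 had medians of at least 5 FPKM in LPS and under 1 FPKM in LPS-MIC-1, and 2 had the converse. These had to differ, so the counts describe the list. In the class expressed in both groups 5 of 6 were lower and 1 not called. Tnf, the tumour necrosis factor, fell from 403, 407 and 382 FPKM in LPS to 13.2, 1.19 and 1.24 FPKM in LPS-MIC-1, with 56.5, 59.9 and 56.4 FPKM in the control libraries and a log2FC of -7.12 ± 0.93 (SE; adjusted p = 5.8e-04), a call that was kept without LPS-MIC-1 replicate 1 and lost when any other single library was left out. Il1b, interleukin-1β, was at 162, 165 and 172 FPKM in LPS and 5.09, 0.09702 and 0.185 FPKM in LPS-MIC-1, and at 2.33, 1.92 and 2.32 FPKM in the control libraries. Its log2FC was -7.97 ± 1.24 (SE; adjusted p = 0.0013) with all libraries, which was not called, and -9.46 ± 0.17 SE without LPS-MIC-1 replicate 1, which was. In both genes LPS-MIC-1 replicates 2 and 3 were at or under 1.24 FPKM and replicate 1 stood well above them. Csf3, the granulocyte growth factor, was at 2611, 2641 and 2492 FPKM in LPS and 64.2, 2.01 and 1.37 FPKM in LPS-MIC-1. Spp1, osteopontin, stood outside these patterns, at 18519.9, 18699 and 18922 FPKM in LPS and 779.6, 34.2 and 24.4 FPKM in LPS-MIC-1. It was the most abundant member of the list in LPS and in LPS-MIC-1 replicate 1, where the trace share of the LPS mean is 523 FPKM. In LPS-MIC-1 replicates 2 and 3 the most abundant member was Csf1, at 121 and 108 FPKM. Spp1 was not called with all libraries, at -7.75 ± 1.32 (SE; adjusted p = 0.002), and was lower without LPS-MIC-1 replicate 1, at -9.33 ± 0.16 SE.

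In the second pattern every LPS-MIC-1 library kept several FPKM. Il6, interleukin-6, fell from 55.04, 54.4 and 60.96 FPKM in LPS to 13.6, 9.32 and 14.1 FPKM in LPS-MIC-1, with 0, 0 and 0 FPKM in the control libraries and a log2FC of -2.22 ± 0.17 (SE; adjusted p = 5.3e-05). Lif, a cytokine of the same receptor family, fell from 173, 174 and 172 FPKM in LPS to 17.6, 10.6 and 9.28 FPKM in LPS-MIC-1. Tnfsf9, the ligand of 4-1BB, fell from 96.5, 99.5 and 98.2 FPKM in LPS to 28.2, 27.1 and 35.3 FPKM in LPS-MIC-1. These 3 stayed called without LPS-MIC-1 replicate 1. Il33, an alarmin, was lower with 74.6, 76.3 and 76.02 FPKM in LPS and 30.3, 24.1 and 36.3 FPKM in LPS-MIC-1, and was not called without LPS-MIC-1 replicate 1 (-1.35 ± 0.18 SE). In the third pattern LPS was near 0. Csf1, the growth factor of macrophages, rose from 0.6203, 0.747 and 0.6604 FPKM in LPS to 119, 121 and 108 FPKM in LPS-MIC-1. Il34, a second ligand of the same receptor, rose from 0.341, 0.152 and 0.1895 FPKM in LPS to 18.7, 16.6 and 17.7 FPKM in LPS-MIC-1. Tslp, an epithelial alarmin, was at 1.75, 2.295 and 2.69 FPKM in LPS-MIC-1 and 0 in all LPS libraries. Of the type I interferons, no Ifna gene passed the level filter, and Ifnb1 reached at most 0.414 FPKM.

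The chemokines held the same 3 patterns, with 7 higher, 6 lower and 7 not called of 20 tested, and 6 higher and 12 lower without LPS-MIC-1 replicate 1. Of the 20, 7 had medians of at least 5 FPKM in LPS and under 1 FPKM in LPS-MIC-1, and 5 had the converse. These had to differ, so the counts describe the list. In the class expressed in both groups 1 of 5 was higher, 1 lower and 3 not called. Ccl3, a chemokine of monocytes and T cells, was at 17399, 17825 and 16689 FPKM in LPS and 447, 14.6 and 9.73 FPKM in LPS-MIC-1. Its log2FC was -8.75 ± 1.45 (SE; adjusted p = 0.0018) with all libraries and -10.49 ± 0.19 SE without LPS-MIC-1 replicate 1, where it was called lower. Cxcl2, which attracts neutrophils, was at 8374, 8322 and 8405 FPKM in LPS and 232, 6.15 and 2.87 FPKM in LPS-MIC-1. Ccl3, Ccl5 and Cxcl2 counted as expressed in both groups while LPS-MIC-1 replicates 2 and 3 had under 1% of their very high LPS levels. Ccl2, which recruits monocytes, was lower and abundant in both groups. It fell from 948, 953 and 953 FPKM in LPS to 313, 381 and 455 FPKM in LPS-MIC-1, a log2FC of -1.33 ± 0.14 (SE; adjusted p = 2.1e-04), with 81.996, 74.7 and 83.1 FPKM in the control libraries, and was no longer called without LPS-MIC-1 replicate 2 or without any 1 of the LPS libraries. Ccl7, another chemokine of monocytes, rose from 85.7, 93.9 and 90.4 FPKM in LPS to 249.7, 278 and 301 FPKM in LPS-MIC-1, a log2FC of 1.61 ± 0.08 (SE; adjusted p = 1.1e-05). Ccl2 and Ccl7 thus differed in opposite directions, both at 85.7 FPKM or more in every library.

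Several chemokines were found almost only in LPS-MIC-1. Cxcl1, a ligand of the neutrophil receptor CXCR2, rose from 0.0762, 0.0771 and 1.15 FPKM in LPS to 402, 498 and 574 FPKM in LPS-MIC-1. Cxcl5, a second ligand of that receptor, rose from 0.161, 0.243 and 2.09 FPKM in LPS to 457, 386 and 563 FPKM in LPS-MIC-1. Ccl8, a monocyte chemokine, was listed at 0 in LPS and at 41.98, 37.3 and 36.4 FPKM in LPS-MIC-1. All LPS-MIC-1 libraries thus held at least 386 FPKM of Cxcl1 and Cxcl5, and LPS held at most 2.09 FPKM of either. Cx3cl1, a membrane-bound chemokine, rose from 0.1199, 0.1602 and 0.179 FPKM in LPS to 61.9, 58.1 and 74.3 FPKM in LPS-MIC-1. Cxcl12, a chemokine of stromal cells, rose from 0, 0 and 0.0197 FPKM in LPS to 16.1, 10.4 and 15.02 FPKM in LPS-MIC-1.

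**Figure D4:**
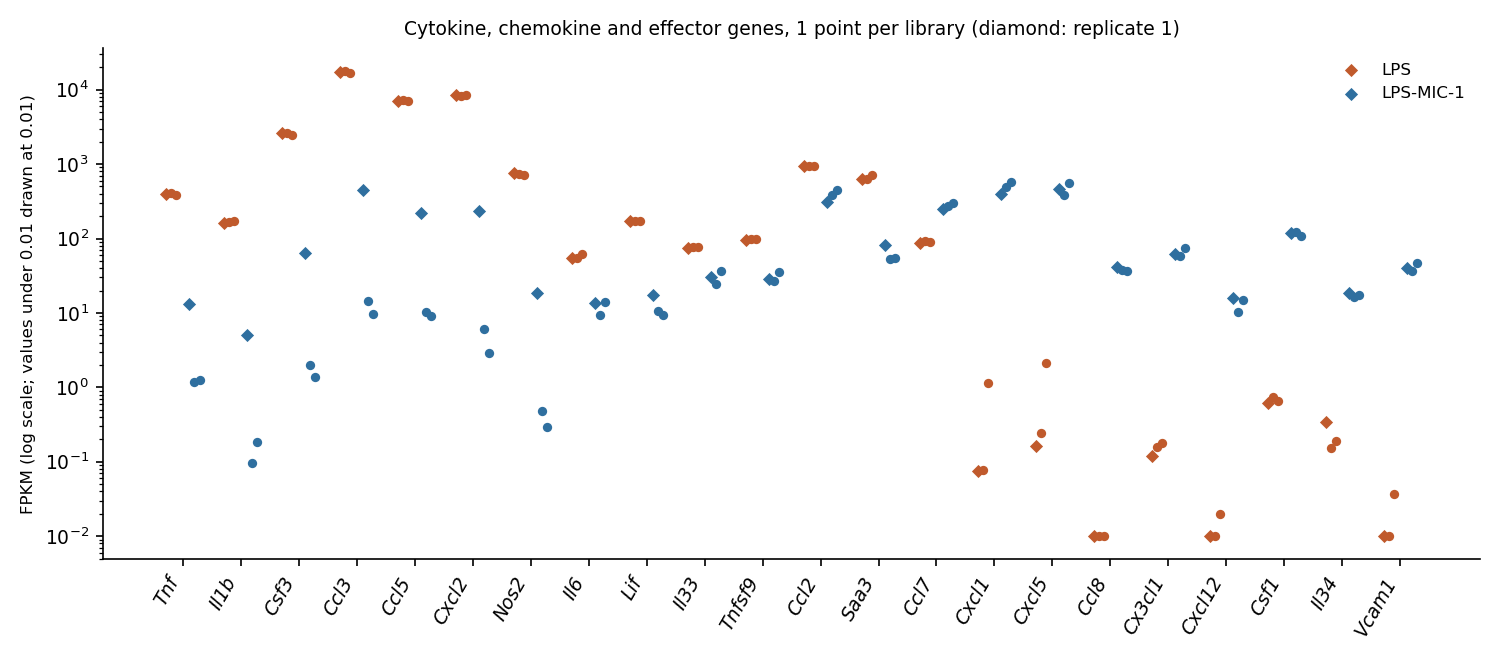
FPKM (log axis) of cytokine, chemokine and effector genes in each library, with LPS at the left and LPS-MIC-1 at the right of each gene and diamonds for replicate 1. In Tnf, Il1b, Csf3, Ccl3, Ccl5, Cxcl2 and Nos2 the LPS-MIC-1 diamond sits far above the other LPS-MIC-1 points, in Il6, Lif, Il33, Tnfsf9, Ccl2 and Saa3 the LPS-MIC-1 points lie together below LPS, and from Ccl7 to Vcam1 they lie above LPS.

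Effector genes of inflammation were 10 lower, 6 higher and 6 not called of 22 tested (median -2.22), and in the class expressed in both groups 5 of 9 were lower and 3 higher. Saa3, an acute-phase protein, fell from 626, 633 and 709 FPKM in LPS to 81.3, 53.3 and 55.2 FPKM in LPS-MIC-1. Cfb, complement factor B, fell from 30.1, 29.8 and 27.1 FPKM in LPS to 2.88, 1.86 and 1.91 FPKM in LPS-MIC-1. Lcn2, which binds bacterial siderophores, was at 2697, 2678 and 2647 FPKM in LPS and 72.1, 3.96 and 3.38 FPKM in LPS-MIC-1, and was called lower without LPS-MIC-1 replicate 1 but not with it. The cyclooxygenases went in opposite directions: against the fall of Ptgs2, the constitutive Ptgs1 rose from 13.1, 13.2 and 11.96 FPKM in LPS to 226, 212 and 248 FPKM in LPS-MIC-1. Vcam1, an adhesion molecule, rose from 0, 0 and 0.0366 FPKM in LPS to 40.1, 36.4 and 46.9 FPKM in LPS-MIC-1. Ass1, which resupplies arginine, rose from 7.905, 9.02 and 10.1 FPKM in LPS to 33.9, 27.7 and 36.6 FPKM in LPS-MIC-1. Alox5, the enzyme that starts leukotriene synthesis, rose from 7.298, 7.59 and 7.94 FPKM in LPS to 64.7, 59.2 and 76.8 FPKM in LPS-MIC-1. These rises were seen in genes near 0 in LPS (Vcam1) and in genes that LPS held at several FPKM (Ass1, Alox5). Sod2, the mitochondrial superoxide dismutase, was not called with 46.6, 43.8 and 44.9 FPKM in LPS and 33.1, 32.7 and 44.2 FPKM in LPS-MIC-1.

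Of 43 tested interferon-response genes, 30 were lower, 1 higher and 12 not called, with a median of -4.51, against 21.8% lower over all genes, and 35 were lower and 0 higher without LPS-MIC-1 replicate 1. Of the 43, 19 had medians of at least 5 FPKM in LPS and under 1 FPKM in LPS-MIC-1. They entered the test through LPS, so they had to differ. Members with lower LPS levels, such as Ifit2 and Gbp3, entered in the same way. Isg15, a ubiquitin-like protein, fell from 317, 327 and 333 FPKM in LPS to 10.8, 2.46 and 2.83 FPKM in LPS-MIC-1. Oasl1, a relative of the RNA-sensing oligoadenylate synthetases, fell from 259, 242 and 257 FPKM in LPS to 4.84, 0.816 and 0.498 FPKM in LPS-MIC-1. Irf7, the factor that amplifies interferon, was at 274, 282 and 277 FPKM in LPS and 7.12, 0.568 and 0 FPKM in LPS-MIC-1, and was called lower without LPS-MIC-1 replicate 1 but not with it. These genes were at 2.83 FPKM or less in LPS-MIC-1 replicates 2 and 3. In the class expressed in both groups 8 members remained, with Bst2 (-3.87) and Ifnar2 (-1.34) lower, Ifitm2 higher (1.06) and 5 not called, and Ifitm2 lost its call without LPS-MIC-1 replicate 1 (1.12 ± 0.14 SE). Ifitm3, the most abundant member in LPS-MIC-1 and an inhibitor of viral entry, was at 1228, 1203 and 1239 FPKM in LPS and 1307, 1229 and 1525 FPKM in LPS-MIC-1, and the groups overlapped. Tmem173, which encodes STING, was at 14.1, 14.2 and 14.03 FPKM in LPS and 10.02, 7.95 and 3.4996 FPKM in LPS-MIC-1, and was not called (-1.100 ± 0.38 (SE; adjusted p = 0.036)).

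Genes of antigen presentation were 12 lower, 0 higher and 2 not called of 14 tested, and 6 of 7 were lower in the class expressed in both groups. H2-D1, a class I heavy chain, fell from 516, 507 and 514 FPKM in LPS to 80.1, 76.3 and 84.2 FPKM in LPS-MIC-1. B2m, the class I light chain, fell from 1463, 1545 and 1656 FPKM in LPS to 728, 684 and 933 FPKM in LPS-MIC-1, a log2FC of -1.004 ± 0.14 (SE; adjusted p = 6.9e-04). Without LPS-MIC-1 replicate 1 B2m was not called (-0.96 ± 0.16 SE). Cd74, the invariant chain of class II, fell from 542, 529 and 529 FPKM in LPS to 15.6, 1.02 and 2.19 FPKM in LPS-MIC-1, a call lost when any 1 library other than LPS-MIC-1 replicate 1 was left out. Cd80, a co-stimulatory ligand, fell from 53.2, 55.6 and 55.5 FPKM in LPS to 5.69, 5.92 and 7.23 FPKM in LPS-MIC-1. Of these genes H2-D1 and B2m kept 76.3 FPKM or more in LPS-MIC-1, and Cd74 kept 2.19 FPKM or less in replicates 2 and 3.

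Genes of cytokine receptors, JAK, STAT and SOCS were 6 higher, 9 lower and 11 not called of 26 tested, against 24.3% higher and 21.8% lower over all genes, so the higher share was near that of all genes. Jak2 fell from 24.6, 23.8 and 24.5 FPKM in LPS to 5.33, 4.43 and 4.47 FPKM in LPS-MIC-1, a log2FC of -2.34 ± 0.095 (SE; adjusted p = 4.8e-06). Jak1 fell from 65.3, 65.1 and 63.2 FPKM in LPS to 15.6, 16.7 and 16.6 FPKM in LPS-MIC-1. Stat3 was at 43.9, 44.3 and 43.3 FPKM in LPS and 30.9, 29.03 and 30.3 FPKM in LPS-MIC-1, with -0.54 ± 0.05 (SE; adjusted p = 1.1e-04), which is under the fold limit. The feedback inhibitors went in different directions. Socs3 fell from 297, 301 and 296 FPKM in LPS to 29.9, 21.1 and 19.3 FPKM in LPS-MIC-1. Socs1 rose from 3.896, 3.58 and 4.03 FPKM in LPS to 12.4, 15.9 and 14.8 FPKM in LPS-MIC-1. Socs2 rose from 0.9005, 1.14 and 1.13 FPKM in LPS to 15.6, 17.01 and 14.8 FPKM in LPS-MIC-1. Among receptors, Osmr, for oncostatin M, rose from 0, 0 and 0.0379 FPKM in LPS to 16.2, 13.5 and 11.7 FPKM in LPS-MIC-1, and Tnfrsf1b, the second TNF receptor, fell from 495, 491 and 476 FPKM in LPS to 24.3, 11.2 and 10.8 FPKM in LPS-MIC-1.

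Of 41 tested Nrf2 and antioxidant genes, 19 were higher, 10 lower and 12 not called, with a median of 0.65. In the class expressed in both groups 33 remained, of which 11 were higher, 10 lower and 12 not called, and their median was 0.23 against 0.09 for the class. The transcripts of the regulators were not called. Nfe2l2, which encodes Nrf2, was at 56.4, 55.6 and 55.2 FPKM in LPS and 38.1, 33.99 and 49.8 FPKM in LPS-MIC-1, and at 69.3, 71.05 and 68.5 FPKM in the control libraries (-0.47 ± 0.14 (SE; adjusted p = 0.021)). Keap1 was at 19.6, 18.4 and 18.7 FPKM in LPS and 18.9, 18.8 and 22.4 FPKM in LPS-MIC-1 (0.08 ± 0.09 (SE; adjusted p = 0.45)). The higher members were mainly enzymes that conjugate or reduce. Nqo1, a quinone reductase, rose from 0.0867, 0 and 0.477 FPKM in LPS to 181, 191 and 216 FPKM in LPS-MIC-1, with 0.0366, 0 and 0 FPKM in the control libraries. Gsta4, a glutathione transferase, rose from 0.151, 0.153 and 1.53 FPKM in LPS to 598, 587 and 799 FPKM in LPS-MIC-1. Gstm1, of the mu class, rose from 17.1, 16.99 and 16.6 FPKM in LPS to 376, 379 and 457 FPKM in LPS-MIC-1. Nqo1 and Gsta4 were almost absent from LPS, whereas LPS held Gstm1 at 16.6 to 17.1 FPKM. Ephx1, an epoxide hydrolase, rose from 20.6, 18.02 and 20.7 FPKM in LPS to 223, 229.6 and 239.8 FPKM in LPS-MIC-1. Gsta1, which shares sequence with other alpha-class transferases, was higher with 0.0879, 0 and 1.69 FPKM in LPS and 353, 421 and 515 FPKM in LPS-MIC-1, and lost its call without LPS-MIC-1 replicate 1.

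Other members of the list were higher too. Txn1, thioredoxin, rose from 219, 219.8 and 228 FPKM in LPS to 897, 886 and 1121 FPKM in LPS-MIC-1. Txnrd1, its reductase, rose from 70.5, 68.1 and 68.4 FPKM in LPS to 157, 164 and 151 FPKM in LPS-MIC-1. Sod1, the cytosolic superoxide dismutase, rose from 315, 331 and 324 FPKM in LPS to 899, 873 and 1088 FPKM in LPS-MIC-1, a log2FC of 1.55 ± 0.098 (SE; adjusted p = 2.4e-05), with 477, 456 and 509 FPKM in the control libraries. Prdx1, Prdx6, Gsr and Taldo1 were higher by 1.09, 1.799, 1.29 and 1.95 on the log2 scale. Cat, catalase, which also removes hydrogen peroxide, went the other way and fell from 54.5, 52.9 and 52.2 FPKM in LPS to 14.1, 16.9 and 17.02 FPKM in LPS-MIC-1, a log2FC of -1.73 ± 0.09 (SE; adjusted p = 1.0e-05), with 50.9, 51.3 and 50.5 FPKM in the control libraries. Lower members included genes of iron and haem, among them Hmox1 above. Fth1, the ferritin heavy chain, fell from 34644, 34214 and 33476 FPKM in LPS to 4790.4, 4047 and 4899 FPKM in LPS-MIC-1, and Ftl1, the light chain, fell from 24288, 24499 and 24343 FPKM in LPS to 4532, 3804 and 4430.01 FPKM in LPS-MIC-1. Sqstm1, the autophagy receptor p62, fell from 3278, 3223 and 3278 FPKM in LPS to 521, 475 and 545 FPKM in LPS-MIC-1. Slc7a11, the cystine importer, fell from 22.2, 22.5 and 21.7 FPKM in LPS to 5.27, 5.14 and 5.26 FPKM in LPS-MIC-1. Gclc and Gclm, the subunits of the first enzyme of glutathione synthesis, were not called (0.41 and -0.64), nor were Srxn1 (0.65), G6pdx (-0.797), Gpx1 (0.14) and Gpx4 (0.37). The list therefore held large changes in both directions around a median near that of all genes in the class.

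Stress genes of the endoplasmic reticulum were 14 lower, 1 higher and 10 not called of 25 (median -1.33), and 12 of 23 were lower in the class expressed in both groups. Hspa5, the chaperone BiP, fell from 2615, 2573 and 2631 FPKM in LPS to 549.9, 543 and 469.6 FPKM in LPS-MIC-1. Atf4, the factor of the integrated stress response, fell from 591, 609.8 and 628 FPKM in LPS to 207, 202 and 188 FPKM in LPS-MIC-1. Ddit3 (CHOP), its target, fell from 175, 183 and 191 FPKM in LPS to 46.2, 44.1 and 33.8 FPKM in LPS-MIC-1. The LPS-MIC-1 libraries lay close together in all 3 genes and did not overlap with LPS. The chaperone genes Calr, Canx and Hsp90b1 were not called, and Phgdh, of serine synthesis, was the member that was higher (1.13). Heat shock genes ran the other way, with 11 higher, 1 lower and 5 not called of 17 (median 1.27), and 7 of 13 higher in the class expressed in both groups. Hsp90aa1, the inducible HSP90, rose from 273, 272 and 276 FPKM in LPS to 663, 623 and 729.98 FPKM in LPS-MIC-1. Hspd1, the mitochondrial chaperonin, rose from 91.7, 90.3 and 93.9998 FPKM in LPS to 282, 267 and 314 FPKM in LPS-MIC-1. Hspa8, the constitutive Hsc70, was the lower member and fell from 3035, 3110.4 and 3129.8 FPKM in LPS to 1715, 1324 and 1384 FPKM in LPS-MIC-1. Hsf1, the factor that drives these genes, was higher by 2.29 on the log2 scale, a call lost without LPS-MIC-1 replicate 1.

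Immediate-early genes and phosphatases, which are switched on within minutes of a signal, were 13 lower, 2 higher and 6 not called of 21 (median -1.94), and 11 of 19 were lower in the class expressed in both groups. Fos fell from 286, 269 and 269 FPKM in LPS to 17.7, 10.1 and 13.7 FPKM in LPS-MIC-1. Egr1 fell from 336, 324 and 327 FPKM in LPS to 54.97, 45.3 and 53.1 FPKM in LPS-MIC-1. Dusp1, a phosphatase of MAP kinases, fell from 651, 634 and 638 FPKM in LPS to 157, 152 and 151 FPKM in LPS-MIC-1. All LPS-MIC-1 libraries held these transcripts at 10 FPKM or more. Zfp36, which destabilises cytokine mRNA, fell from 1039, 998 and 980.4 FPKM in LPS to 55.2, 28.2 and 29.8 FPKM in LPS-MIC-1. The 2 higher members were Fosl1, which rose from 78.5, 75.6 and 74.4 FPKM in LPS to 335, 345 and 413 FPKM in LPS-MIC-1, and Myc, which rose from 13.8, 12.9 and 13.04 FPKM in LPS to 29.1, 29.6 and 24.7 FPKM in LPS-MIC-1.

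Cell cycle genes were 22 higher, 1 lower and 15 not called of 38 tested (median 1.28), and 19 of 34 were higher in the class expressed in both groups. Mcm6, of the replicative helicase, rose from 15.9, 15.1 and 15.2 FPKM in LPS to 132, 104 and 159.6 FPKM in LPS-MIC-1. Rrm2, a subunit of ribonucleotide reductase, rose from 15.9, 15.8 and 15.4 FPKM in LPS to 223, 158 and 249.5 FPKM in LPS-MIC-1. Ccnd1, cyclin D1, rose from 38.5, 37.8 and 37.02 FPKM in LPS to 145, 172 and 185 FPKM in LPS-MIC-1. In these genes LPS-MIC-1 was at least 3 times above LPS in every library. Mitotic genes were divided, with Cdk1 (2.88), Birc5 (2.100) and Plk1 (1.44) higher, the last 2 not called without LPS-MIC-1 replicate 1, and with Ccnb1 (-0.105), Bub1 (-0.43) and Aurkb (0.77) not called. Cdk2 was the lower member and fell from 24.4, 25.04 and 26.3 FPKM in LPS to 11.1, 11.02 and 9.99 FPKM in LPS-MIC-1. Of 15 tested p53 targets and inhibitors of the cycle, 7 were lower and 3 higher. Mdm2, which degrades p53, fell from 194, 194 and 193 FPKM in LPS to 20.8, 6.02 and 13.6 FPKM in LPS-MIC-1. Phlda3, a p53 target that restrains Akt, rose from 9.17, 8.87 and 9.28 FPKM in LPS to 224, 235 and 276 FPKM in LPS-MIC-1. Cdkn1a (p21) was not called with 555, 564 and 553 FPKM in LPS and 281, 268 and 330.3 FPKM in LPS-MIC-1. Genes of apoptosis and the inflammasome were 8 lower, 2 higher and 11 not called of 21, against 21.8% lower and 24.3% higher over all genes. Mcl1, a survival factor, fell from 438, 437 and 434 FPKM in LPS to 81.5, 70.7 and 56.6 FPKM in LPS-MIC-1, and Bax, its opponent, was not called (0.22). The copies Bcl2a1a, Bcl2a1b and Bcl2a1d share most of their sequence, so their levels are uncertain.

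Among genes of energy metabolism, all 41 respiratory chain genes were in the class expressed in both groups, and 21 were higher, against 19.8% of the class, 0 lower and 20 not called (median 1.02). Cox6c, of complex IV, rose from 131, 152 and 147 FPKM in LPS to 575, 586 and 747 FPKM in LPS-MIC-1. Ndufa4, a small subunit of the chain, rose from 192, 177 and 205 FPKM in LPS to 582, 645 and 877 FPKM in LPS-MIC-1. Cox5b rose from 251, 248 and 269.8 FPKM in LPS to 784, 887 and 1079.8 FPKM in LPS-MIC-1. The 4 subunits of complex II were not called, with Sdha (-0.15), Sdhb (0.49), Sdhc (0.39) and Sdhd (-0.17). Glycolytic genes were 9 lower, 3 higher and 12 not called of 24 (median -0.92), against 21.8% lower and 24.3% higher over all genes tested. Slc2a1, the glucose transporter GLUT1, fell from 1248, 1255 and 1226 FPKM in LPS to 245, 201 and 232 FPKM in LPS-MIC-1. Gapdh fell from 7815, 7899 and 7870.2 FPKM in LPS to 2289, 2111 and 2523 FPKM in LPS-MIC-1. Slc16a3, the lactate exporter, fell from 245, 246 and 242 FPKM in LPS to 30.6, 22.8 and 31.7 FPKM in LPS-MIC-1. Isoforms of 1 enzyme moved apart: Pfkp fell, with a log2FC of -3.096, and the muscle form Pfkm was higher by 1.32, a call lost without LPS-MIC-1 replicate 1. Likewise Eno2 fell, with -4.89, and Eno3 rose. Of 23 cholesterol genes 14 were not called, 7 were lower and 2 higher.

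Of the 42 ribosomal protein genes of the list, which does not include Rpl30 named above, 37 were not called and 5 were higher (median 0.63). Of those 5, Rps6 and Rps19 were at or under 68.4 FPKM in every library, and both have processed copies with which reads may have been shared. Proteasome genes were 11 higher, 2 lower and 18 not called of 31 (median 0.80). Psmc3, an ATPase of the cap, rose from 56.7, 53.8 and 53.3 FPKM in LPS to 213, 207 and 255 FPKM in LPS-MIC-1, and Psmd11, of its lid, fell from 209.5, 219 and 219 FPKM in LPS to 72.4, 73.7 and 83.6 FPKM in LPS-MIC-1. Lysosomal genes were 15 lower, 2 higher and 9 not called of 26 (median -1.23). Ctsd, cathepsin D, fell from 2562, 2562 and 2505 FPKM in LPS to 1019.6, 1044 and 1162 FPKM in LPS-MIC-1. Lipa, the acid lipase, fell from 126, 131 and 123 FPKM in LPS to 16.01, 12.6 and 18.4 FPKM in LPS-MIC-1. The 2 higher members were Psap, which rose from 108, 84.9 and 99.4 FPKM in LPS to 811, 813 and 854 FPKM in LPS-MIC-1, and Cd63, which rose from 592, 608 and 629 FPKM in LPS to 3141, 3380.1 and 4103 FPKM in LPS-MIC-1. Autophagy genes were 5 lower, 3 higher and 12 not called of 20, which is near or below the 21.8% and 24.3% of all genes tested. Map1lc3a was higher (1.45) and Atg13 lower (-3.06).

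Cytoskeleton genes were 17 higher, 1 lower and 13 not called of 31 (median 1.37), and 13 of 27 were higher in the class expressed in both groups. Actb, β-actin, rose from 1539, 1594 and 1596 FPKM in LPS to 3906, 4007 and 4834 FPKM in LPS-MIC-1. Tpm1, a tropomyosin, rose from 101, 98.9 and 94.5 FPKM in LPS to 518, 494 and 571 FPKM in LPS-MIC-1. Zyx, zyxin of focal adhesions, rose from 54.9, 50.3 and 48.4 FPKM in LPS to 291, 299 and 322 FPKM in LPS-MIC-1. All LPS libraries held these genes at 48.4 FPKM or more. Vim, vimentin, was not called with 3078, 3019 and 3058 FPKM in LPS and 3793, 3602 and 4411 FPKM in LPS-MIC-1. Cotl1, an actin-binding protein, was the lower member and fell from 131, 129 and 119 FPKM in LPS to 13.1, 9.802 and 11.6 FPKM in LPS-MIC-1. Of 9 tested integrins, 4 were higher and 2 lower. Itgb1, the common β chain, rose from 33.6, 32.9 and 32.8 FPKM in LPS to 161, 149 and 160.01 FPKM in LPS-MIC-1, and Itga4, an α chain of leukocytes, fell from 68.2, 70.8 and 71.2 FPKM in LPS to 3.702, 1.78 and 1.29 FPKM in LPS-MIC-1. Genes of the TGF-β and IGF systems were 14 higher, 5 lower and 5 not called of 24 (median 2.67), but of the 7 in the class expressed in both groups 1 was higher and 4 lower. Igfbp2, an IGF-binding protein, rose from 0, 0 and 0.411 FPKM in LPS to 202, 201 and 251 FPKM in LPS-MIC-1. Id1, a target of BMP signals, rose from 11.02, 12.6 and 12.2 FPKM in LPS to 97.02, 94.7 and 86.2 FPKM in LPS-MIC-1. Tgfb1, TGF-β1, fell from 235, 221 and 217 FPKM in LPS to 93.1, 81.3 and 98.9 FPKM in LPS-MIC-1.

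**Figure D5:**
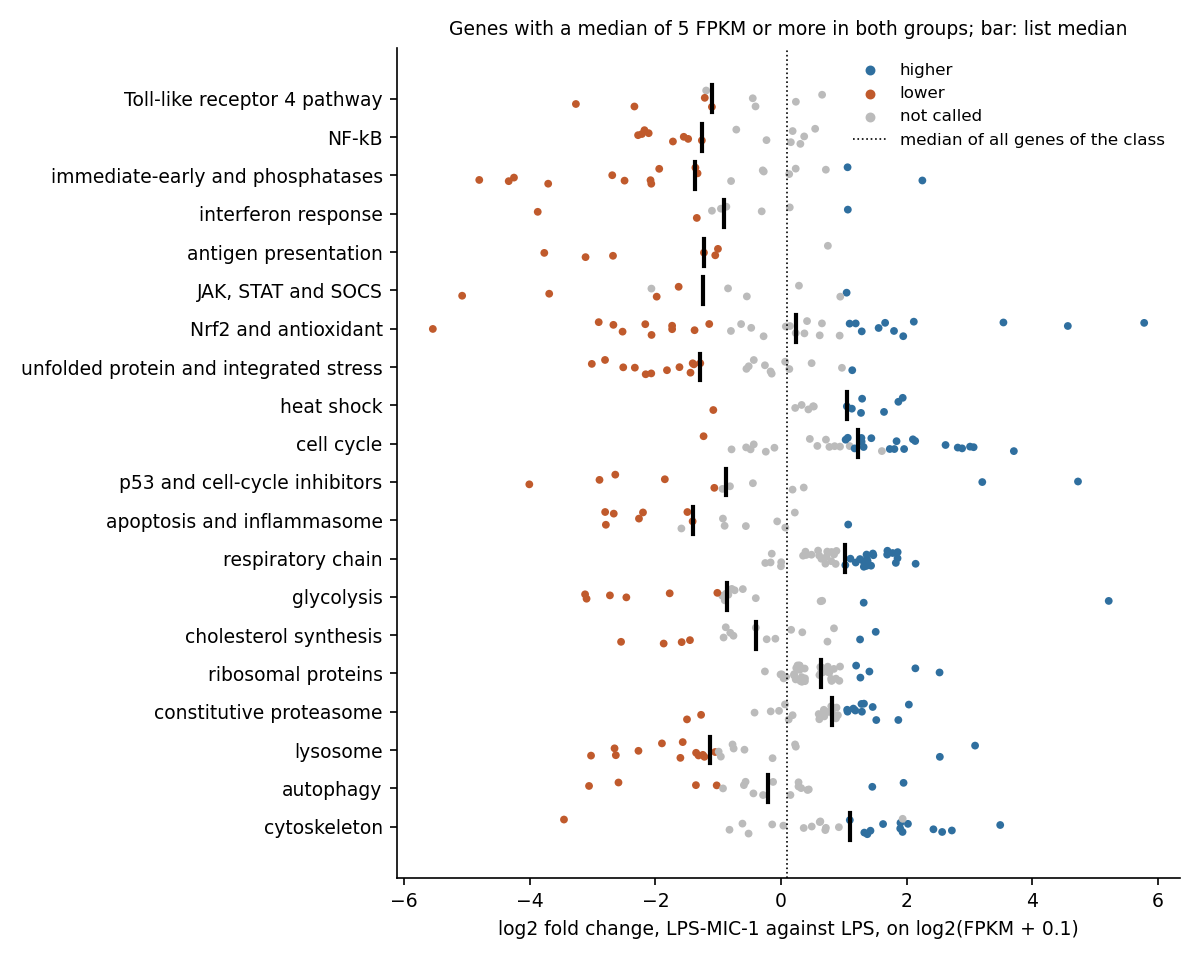
Log2FC of LPS-MIC-1 against LPS for the members of 20 lists that had a median of 5 FPKM or more in both groups, 1 point per gene coloured by call, with a bar at the list median and a dotted line at the class median of 0.09. The medians of the TLR4, NF-κB, antigen presentation, JAK and STAT, endoplasmic reticulum stress, apoptosis, lysosome and immediate-early lists lie between -1.41 and -1.10, and those of the respiratory chain, heat shock, cell cycle and cytoskeleton lists between 1.02 and 1.23.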

How the data were processed

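RNA-seq values of 6 libraries were taken from the table of the cultured cells. The deposited values are FPKM, which the authors computed per gene. The submitters' processing notes name mm9, kallisto and DESeq2 as used by the authors, whose methods describe kallisto pseudoalignment, FPKM values and then import with tximport for testing. Deposited tables of comparisons hold base means, fold changes, standard errors and p-values of the authors and were not used. The muscle libraries were not analysed here. The labels give MIC-1 at 10 μM, while the study's text names a lower dose for the transcriptome, and the ethanol vehicle of its methods is not in the labels. Read counts were not used, the depth is unknown and its relative estimates cover the low values only.

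Of 21401 symbols, 25 of which read as dates or numbers, 11001 had a mean FPKM over 1 across the 6 libraries and were tested. A moderated linear model of log2(FPKM + 0.1) was fitted with limma 3.58.1 in R 4.3.3 with a mean-variance trend, and two-sided p-values were adjusted by the Benjamini-Hochberg method over all genes tested. Genes were called where the adjusted p was below 0.001 and the log2 fold change exceeded 1 in size. With 3 libraries against 3 an exact permutation test of 1 gene cannot go below p = 0.1, so none is given. Tables and figures were made in Python 3.11.15 with matplotlib 3.10.9. The procedure was tested on simulated data.

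The 37 gene lists and the level classes were chosen with earlier results of these data known. They hold 855 genes, of which 850 were found and 742 tested. The rule for named genes took a fixed set (Tnf, Il1b, Il6, Nos2, the Ifna genes, Nfe2l2, Jak2, Stat3, Tmem173, Sod1, Cat). Of each list it took the 3 most abundant and the 3 with the largest change. Among those expressed in both groups without overlap it took the 8 called genes that rose most and the 8 that fell most. The last part was the 5 most abundant genes of each group among those with a median under 1 FPKM in the other. Not all genes of the lists are named, and members named outside the rule were chosen after their values were seen. Alternatives were other pseudocounts, filters, scalings, model settings, class limits and samples. No sequences or coordinates were used.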

Additional observations from a re-analysis of the deposited data

How the results depend on the processing

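More genes were higher than lower in the comparison as reported, but with library weights (2545 against 2646) and with a filter of 5 FPKM (1899 against 1903) more were lower. With pseudocounts of 1 and 0.01, no level filter, a filter of 5 FPKM, median-ratio or quantile scaling, no trend, library weights, a fit on all 9 cultured-cell libraries or subtraction of the trace, 1899 to 3308 genes were higher and 1903 to 2731 lower. With 1 library left out the ranges were 2221 to 2516 higher and 1614 to 2424 lower, and in the class expressed in both groups 966 to 1127 and 800 to 1032. The fit on 9 libraries assumes that the groups share 1 spread. Of the counts over all genes and over the class, only a class limit of 20 FPKM in place of 5 moved any by over 1.5 times. It gave 593 higher and 299 lower, of 2635 genes in that class. The fit was the same there, and fewer genes were counted. Within the lists, leaving out LPS-MIC-1 replicate 1 moved the number of lower macrophage genes from 18 to 30, of chemokines from 6 to 12 and of phagocyte oxidase genes from 1 to 6. Leaving out 6 genes under 1% of LPS, an alternative chosen after the data were seen, gave 1187 higher and 993 lower. The median log2 fold change moved by over 0.1 only with no filter, to 0.19. Same-numbered libraries showed no shared deviation from their group means, with r = -0.0196, -0.00897 and 0.0596 over genes. The labels do not say whether the numbers pair the libraries, and these correlations cannot settle it. With the number as a replicate block 2171 genes were higher and 1648 lower, and 1002 and 798 in the class expressed in both groups.

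Among the 209 genes named, 18 gained a call and 12 lost it without LPS-MIC-1 replicate 1, and 19 gained it with the trace subtracted, where 0 lost it. Leaving out any 1 of the other libraries ended 18 to 24 calls, among them those of Tnf, Csf1r, Cd74, Hspa8, Prdx1 and Il1rn in every case, and left 3 libraries against 2. The sign changed in genes that were not called. Under quantile scaling Bax was at -0.16, Calr at -0.0797, Ccnb1 at 0.10, Gpx1 at -0.26, Ifitm3 at -0.14, Nfkb2 at -0.0643 and Rela at -0.0547 on the log2 scale. Library weights put C79407 at -0.0558. With 1 library left out C79407 ranged from -0.0928 to 0.27, Keap1 from -0.00714 to 0.12 and Ccnb1 from -0.26 to 0.19. The causes were not tested. A description of promoter motifs was not run. The number of reads behind each FPKM is unknown, so no counting error can be given for low values, and differences between groups at a few FPKM in replicates that are near 0 rest on the pseudocount.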
